A study of Mus musculus with 14 samples.

Results

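Microglia are the resident macrophages of the brain. The genes described here were chosen with earlier results of these data known, so the choice was not blind to these arrays. They are 37 known microglia-enriched genes, listed by gene symbol. They cover the complement C1q chains, surface receptors of the resting microglia signature, Trem2 and Fc receptor genes, lysosomal and secreted proteins, transcription factors and genes shared with other leukocytes. Of the 37 genes, 34 had a probe, and 20 were measured, meaning that on 4 or more arrays the deposited detection p of a probe was under 0.05. Those 20 belong to 8671 named genes and 9355 features (genes or unnamed probes) measured in all.

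RNA of the hippocampal CA3 field was profiled on 14 Illumina bead arrays from adult mice of the Sv129Pas strain. In mutants of Dcx, an X-linked gene whose product doublecortin binds microtubules, the CA3 pyramidal cells form an inner and an outer layer that were dissected apart. The 3 groups were the inner layer of Dcx mutants (SPI, animals 146, 147, 148 and 166), the outer layer of Dcx mutants (SPE, the same 4 animals and animal 165) and the undivided CA3 of WT mice (animals 142, 144, 145, 199 and 206). No group received a treatment. Per the labels' protocols the dissected material was pooled before RNA isolation, while each title names 1 animal, so animals were taken as replicates. CA3 was cut in 1 piece in WT, so the SPI and WT pieces also differ in how they were dissected.

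Microglia survey the tissue through purinergic and fractalkine receptors, depend on Csf1r signalling, and take up debris and synaptic material through Trem2 and complement. They are the main source of C1q in the brain, and the 3 C1q chains assemble into 1 recognition molecule that tags targets for uptake. In bulk tissue, more cells of a type and more RNA of that type per cell cannot be told apart.

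The 3 chain genes lie next to each other among the protein-coding genes of chromosome 4, in the order C1qb, C1qc and C1qa. For C1qa the reference used held no promoter sequence. The sequences before the starts of C1qb and C1qc are shown. They are the 250 bases 5′ of the annotated start on the minus strand, from RefSeq on GRCm38.p6. The C1qb stretch is chr4:136886201-136886450 and the C1qc stretch is chr4:136892915-136893164. Capitals mark a purine-rich element searched on both strands, of the kind bound by PU.1, the transcription factor encoded by Spi1.
C1qb: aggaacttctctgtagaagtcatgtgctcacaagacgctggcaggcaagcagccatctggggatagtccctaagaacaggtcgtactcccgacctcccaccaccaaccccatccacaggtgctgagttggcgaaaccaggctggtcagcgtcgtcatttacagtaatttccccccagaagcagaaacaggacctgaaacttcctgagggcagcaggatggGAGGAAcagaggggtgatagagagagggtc
C1qc: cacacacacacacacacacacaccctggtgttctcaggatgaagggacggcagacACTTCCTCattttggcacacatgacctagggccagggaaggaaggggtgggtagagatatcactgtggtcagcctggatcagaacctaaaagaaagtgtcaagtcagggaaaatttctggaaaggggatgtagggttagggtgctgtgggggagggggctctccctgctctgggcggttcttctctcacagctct

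In C1qb the letters GAGGAA stand at positions -30 to -25 from the start, on the strand shown. In C1qc the longer form, GAGGAAGT, stands on the opposite strand at positions -195 to -188, and it contains the shorter one. The longer form occurs in 3.2% and the shorter in 28.3% of 32851 promoter windows of the same kind, each with 250 bases before and 50 after the start. Of 14 measured microglia genes with such a window, 1 held the longer form (C1qc) and 10 held the shorter. These matches describe the letters only.

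The array of the inner layer of animal 147 (SPI 147) was the dimmest of the 14, with a mean raw signal of 119, against 231 to 515 on the other 13. By group, mean raw signals were 119 to 362 in SPI, 279 to 482 in SPE and 371 to 515 in WT. Every SPI array was thus dimmer than every WT array, and SPI and WT levels are compared after normalisation across this gap. Detected probes numbered 8413 on SPI 147 and 10123 to 11988 on the others. The number of arrays limits the precision of every value below. Levels are normalised log2 signals of 1 probe, and levels of different genes are not set against each other.

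Of the 20 measured genes, 9 were detected on all 14 arrays: C1qa, C1qb, C1qc, Tmem119, P2ry13, Selplg, Laptm5, Coro1a and Rgs10. Close to the detection limit, Fcrls passed with 4 arrays (3 of SPI, 1 of SPE, 0 of WT) and Gpr34 with 5 (2 of SPI, 1 of SPE, 2 of WT). Just outside it, Ctss was detected on 3 arrays (SPI 147, SPI 148 and SPE 165). Without the SPI arrays, 18 of the 20 still passed, and Gpr34 and Fcrls did not.

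A further 14 genes had a probe that did not pass. Of these, 11 were detected on no array: the purinergic receptor P2ry12, the Fc receptor genes Fcer1g and Fcgr2b, the integrin Itgam, the lysozyme Lyz2, Hpgds, the transcription factor Irf8, the pan-leukocyte genes Ptprc and Cd53, Cyth4 and the phosphatase Inpp5d. Ly86 was detected on 2 arrays (SPI 146 and SPI 148), and Spi1 on 2 (SPE 165 and WT 144). Csf1r, Cd68 and Vsir were not analysed here. The microglia label therefore rests on the detected genes, since several defining genes were below detection in every group.

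**Figure D1:**
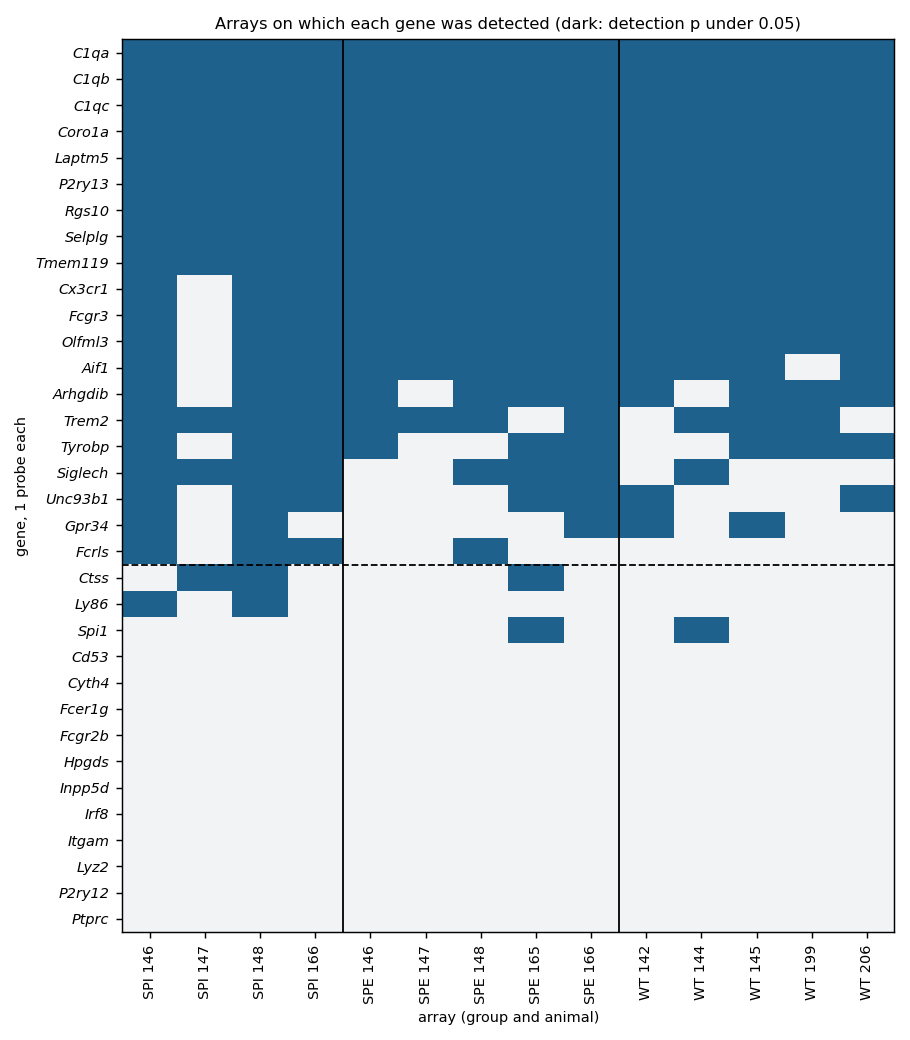
Detection of the microglia genes with a probe (rows) on each array (columns, ordered SPI, SPE, WT), dark where the detection p was under 0.05. Of the 34 genes, 9 were detected on all 14 arrays and 11 on none, and SPI 147 has 9 of the 20 measured genes undetected.

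Microglia genes were higher in SPI than in WT. Of the 20 measured genes 11 rose and 0 fell (limma, adjusted p under 0.05 over all 9355 features), while 13.6% of all features were called higher and 10.9% lower. The genes that rose were C1qa, C1qb, C1qc, Tmem119, P2ry13, Siglech, Selplg, Trem2, Laptm5, Olfml3 and Rgs10. The median log2 difference over the 20 genes was 0.70 (range 0.026 to 1.83), and over all features it was 0.035. Because low probes can pass through the group where they are high, the 9 genes detected on every array are given apart: 8 of them rose, where 18.4% of the features detected on every array were called higher. On 10 of the 20 genes every SPI array lay above every WT array, as for 12.6% of all features. The 10 include Fcrls, which did not pass the filter without the SPI arrays, so its place among them carries no weight. With arrays scaled to their median over all probes in place of quantile normalisation, the median over all features moved to -0.85, and that over the microglia genes to 0.19. Of the 20 genes 1 was then called higher (Siglech) and 1 lower (Coro1a), and C1qc, Cx3cr1, Fcgr3 and Coro1a turned sign.

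The complement chains rose in SPI. C1qa, which encodes the A chain, measured 6.09, 6.68, 6.19 and 6.20 in SPI of animals 146, 147, 148 and 166. It measured 5.16, 5.05, 5.58, 4.91 and 5.32 in SPE of animals 146, 147, 148, 165 and 166, and 5.02, 5.24, 4.95, 5.15 and 4.76 in WT animals 142, 144, 145, 199 and 206. The animals keep this order within each group below. All 4 SPI arrays lay above all others, and the SPE and WT arrays overlapped. C1qa was 2.37-fold higher in SPI than in WT (log2 difference 1.24 ± 0.17, SE; limma adjusted p = 0.000209).

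C1qb, for the B chain, measured 7.48, 7.13, 7.07 and 6.87 in SPI. It measured 6.52, 6.56, 5.99, 5.88 and 6.23 in SPE, and 6.08, 5.85, 5.71, 6.24 and 6.20 in WT. Again the lowest SPI array stood above the highest array of both other groups, and SPE and WT overlapped. The rise over WT was 2.13-fold (1.09 ± 0.17; limma adjusted p = 0.000571).

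C1qc, for the C chain, measured 6.40, 6.25, 6.49 and 6.05 in SPI, against 5.62, 5.70, 5.54, 6.27 and 5.79 in WT. SPI overlapped WT, because WT 199 lay above SPI 147 and SPI 166. The rise was smaller than for the other chains, 1.42-fold (0.51 ± 0.16; limma adjusted p = 0.0306), and it lost the call when any 1 of 7 arrays was left out. Those arrays were WT 142, WT 144, WT 145, WT 206, SPI 146, SPI 148 and SPE 147, with differences of 0.46, 0.48, 0.45, 0.51, 0.48, 0.45 and 0.51. The C1qc call was also lost with the mean signal of each array as a covariate (0.53, limma adjusted p = 0.164). It was lost too without the 3 dimmest arrays and without animal 147, at 0.46 and 0.53 (limma adjusted p = 0.0857 and 0.06). The SPE values of C1qc were 5.71, 5.69, 5.41, 5.63 and 5.87, all below every SPI array.

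Among surface receptors, 7 of 10 listed genes were measured. Of these, 4 rose in SPI over WT (Tmem119, P2ry13, Siglech and Selplg), beside 13.6% of all features. Tmem119, a membrane protein used to tell microglia from other macrophages, measured 6.31, 6.43, 6.48 and 5.93 in SPI. It measured 5.33, 5.77, 5.73, 5.47 and 5.56 in SPE, and 5.24, 5.42, 5.18, 5.25 and 5.22 in WT. SPI stood apart from both groups, and 4 of the 5 SPE arrays also lay above every WT array, the exception being SPE 146. The SPI rise over WT was 2.02-fold (1.02 ± 0.13; limma adjusted p = 0.000138).

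P2ry13, a receptor for ADP, measured 6.02, 5.98, 6.54 and 5.58 in SPI, against 5.24, 4.94, 5.38, 4.98 and 4.87 in WT. SPE of P2ry13 measured 5.38, 5.51, 5.72, 5.35 and 5.35, so that SPE 148 lay above SPI 166. It was 1.92-fold higher in SPI than in WT (0.94 ± 0.16; limma adjusted p = 0.00132).

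Selplg, the ligand of P-selectin, measured 7.89, 7.36, 7.74 and 7.32 in SPI. It measured 6.46, 6.71, 6.72, 6.02 and 6.69 in SPE, and 6.39, 6.01, 6.17, 6.58 and 6.12 in WT. The SPI arrays formed a group of their own, and the SPE and WT arrays overlapped. Its rise over WT was 2.43-fold (1.28 ± 0.18; limma adjusted p = 0.00031).

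Siglech, a lectin receptor that signals through the adaptor Tyrobp, was detected on all 4 SPI arrays, on 3 of 5 SPE arrays and on 1 of 5 WT arrays. It measured 5.71, 6.15, 6.47 and 5.03 in SPI, against 4.71, 4.82, 4.65, 4.60 and 4.53 in WT. SPE of Siglech measured 4.73, 4.74, 5.21, 4.73 and 4.75, and SPE 148 lay above SPI 166. The fitted rise over WT was 2.25-fold (1.17 ± 0.21; limma adjusted p = 0.00184), with most WT arrays below detection.

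The other 3 measured receptors were not called in SPI against WT. Cx3cr1, the fractalkine receptor, measured 7.12, 4.54, 6.79 and 6.58 in SPI, against 6.16, 5.77, 5.67, 5.65 and 6.00 in WT. The SPI arrays fell on both sides of WT: SPI 147, where the probe was not detected, was the lowest of all 14 arrays, and the other 3 SPI arrays were above every WT array. The difference over all arrays was 0.43 ± 0.37 (limma adjusted p = 0.436). Fcrls, an Fc receptor-like scavenger protein of mouse microglia, measured 4.78, 5.03, 5.18 and 4.83 in SPI, against 4.57, 4.56, 4.64, 4.50 and 4.59 in WT, where it was not detected on any array. Fcrls passed the detection filter only through its SPI arrays, so no fold is given. The fit gave limma adjusted p = 0.0529, and 0.0458 without SPE 147. Gpr34, a lysophospholipid receptor, differed by 0.08 ± 0.20 (limma adjusted p = 0.811).

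**Figure D2:**
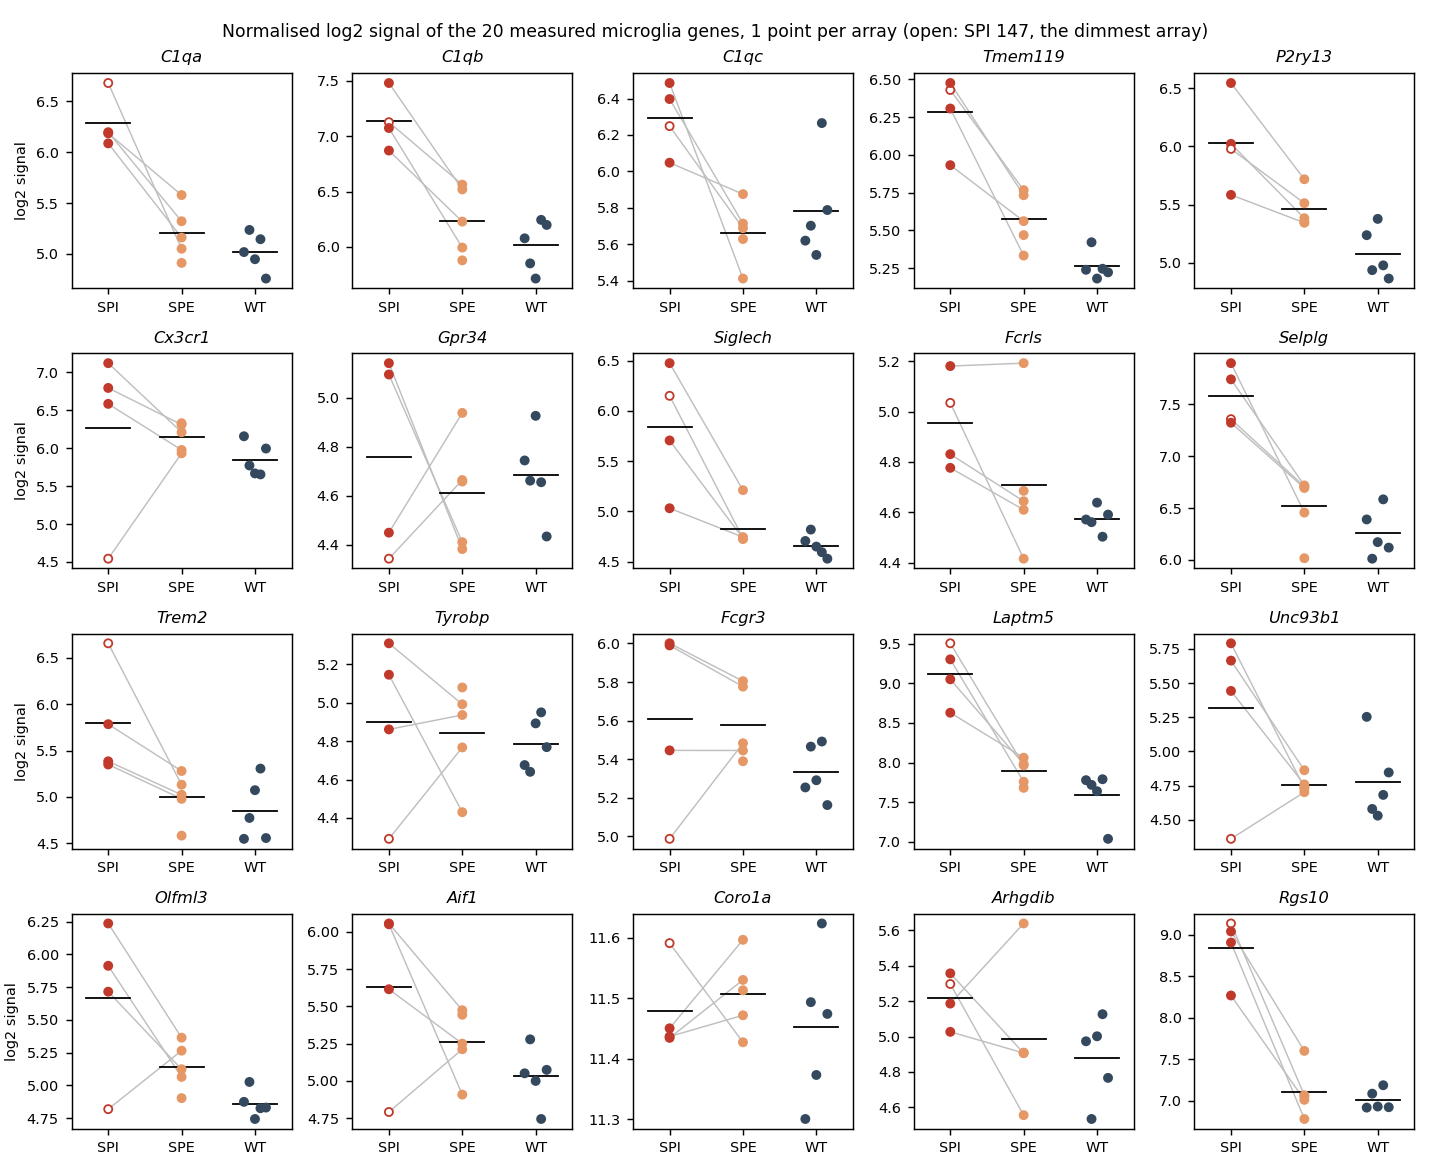
Normalised log2 signal of each of the 20 measured microglia genes, 1 point per array, in SPI (n = 4), SPE (n = 5) and WT (n = 5), with a bar at the group mean, grey lines joining the layers of 1 animal and SPI 147 as an open point. For Laptm5, Rgs10, Selplg, C1qa, C1qb and Tmem119 the SPI points lie above all SPE and WT points, and for Cx3cr1 and Aif1 the open point falls away from the other SPI arrays.

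Of the Trem2, Fc receptor and adaptor genes, 3 of 6 were measured and 1 rose in SPI over WT, beside 13.6% of all features. With 3 genes, this count says little about the family. Trem2, a lipid-sensing receptor that pairs with Tyrobp, measured 5.38, 6.66, 5.78 and 5.35 in SPI. It measured 5.02, 5.13, 5.28, 4.58 and 4.98 in SPE, and 4.55, 4.77, 5.07, 5.30 and 4.55 in WT. Every SPI array lay above every other array, and the highest value by far was that of SPI 147. Trem2 was 1.88-fold higher in SPI than in WT (0.91 ± 0.25; limma adjusted p = 0.0171). Without the 3 dimmest arrays the difference was 0.58 and not called (limma adjusted p = 0.0818), and with the mean signal of each array as a covariate it was 0.17 (limma adjusted p = 0.558).

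Tyrobp, the adaptor itself, differed by 0.14 ± 0.19 (limma adjusted p = 0.640) and measured 5.31, 4.29, 5.15 and 4.86 in SPI, against 4.68, 4.64, 4.89, 4.95 and 4.77 in WT. The low-affinity IgG receptor Fcgr3 differed by 0.26 ± 0.18 (limma adjusted p = 0.309). It measured 6.00, 4.99, 5.99 and 5.45 in SPI, against 5.25, 5.47, 5.29, 5.49 and 5.16 in WT. For both genes the lowest SPI array was SPI 147, where neither was detected, and SPI overlapped WT.

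Among lysosomal, endosomal and secreted proteins, 3 of 8 were measured and 2 rose in SPI over WT, beside 13.6% of all features. A count over 3 genes is a weak description of the family. Laptm5, a lysosomal membrane protein of blood-derived cells and microglia, measured 9.30, 9.50, 9.05 and 8.63 in SPI. It measured 7.76, 7.97, 7.98, 7.68 and 8.06 in SPE, and 7.78, 7.72, 7.64, 7.79 and 7.04 in WT. The SPI arrays stood clear of all others, and the SPE and WT arrays overlapped. Laptm5 was 2.85-fold higher in SPI than in WT (1.51 ± 0.19; limma adjusted p = 0.000155).

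Olfml3, a secreted protein of microglia, measured 5.91, 4.82, 6.24 and 5.71 in SPI, against 4.87, 5.03, 4.74, 4.82 and 4.83 in WT. On SPI 147 the probe was not detected and its value lay within the WT range, while the other 3 SPI arrays were above every WT array. Olfml3 was 1.73-fold higher in SPI than in WT (0.79 ± 0.22; limma adjusted p = 0.0181). The call was lost without SPI 146 (0.70; limma adjusted p = 0.0501). Unc93b1, which carries nucleic acid-sensing Toll-like receptors to endosomes, measured 5.79, 4.36, 5.44 and 5.66 in SPI, against 5.25, 4.58, 4.53, 4.68 and 4.85 in WT, and differed by 0.53 ± 0.24 (limma adjusted p = 0.114). Ctss, a lysosomal protease, had only 3 detected arrays and was not tested.

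Of the cytoskeletal, signalling and pan-leukocyte genes, 4 of 8 were measured and 1 rose in SPI over WT, beside 13.6% of all features. With 4 genes, this count says little about the family. Rgs10, a regulator of G-protein signalling that is also found in neurons, measured 8.91, 9.14, 9.04 and 8.27 in SPI. It measured 6.78, 7.06, 7.60, 7.05 and 7.01 in SPE, and 6.91, 7.08, 6.93, 7.18 and 6.92 in WT. No SPI array came near the other groups, and SPE and WT overlapped. Rgs10 had the largest difference of the 20 genes, 3.55-fold over WT (1.83 ± 0.18; limma adjusted p = 2.8e-05).

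Aif1, the calcium-binding protein known as Iba1, measured 6.05, 4.79, 6.06 and 5.61 in SPI, against 5.05, 5.28, 5.00, 4.74 and 5.07 in WT. SPI 147, where the probe was not detected, was the only SPI array within the WT range. The difference was 0.61 ± 0.23 (limma adjusted p = 0.0623), and a second, dimmer probe of Aif1 gave 0.17 ± 0.19 (limma adjusted p = 0.539). Arhgdib differed by 0.33 ± 0.19 (limma adjusted p = 0.220).

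Coro1a, an actin regulator of leukocytes that neurons also express, measured 11.44, 11.59, 11.45 and 11.43 in SPI, against 11.30, 11.49, 11.37, 11.62 and 11.47 in WT. The groups overlapped, and the difference was 0.03 ± 0.10 (limma adjusted p = 0.873). Its 3 other probes gave -0.27 ± 0.14, -0.54 ± 0.21 and -0.92 ± 0.16 (limma adjusted p = 0.157, 0.0662 and 0.0017), so the probes of Coro1a disagree in sign and in call. The sign of Coro1a also turned under 6 other settings and without SPI 147 or WT 142 (-0.02 and -0.01), and the mean of its probes gave -0.42 (limma adjusted p = 0.027).

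**Figure D3:**
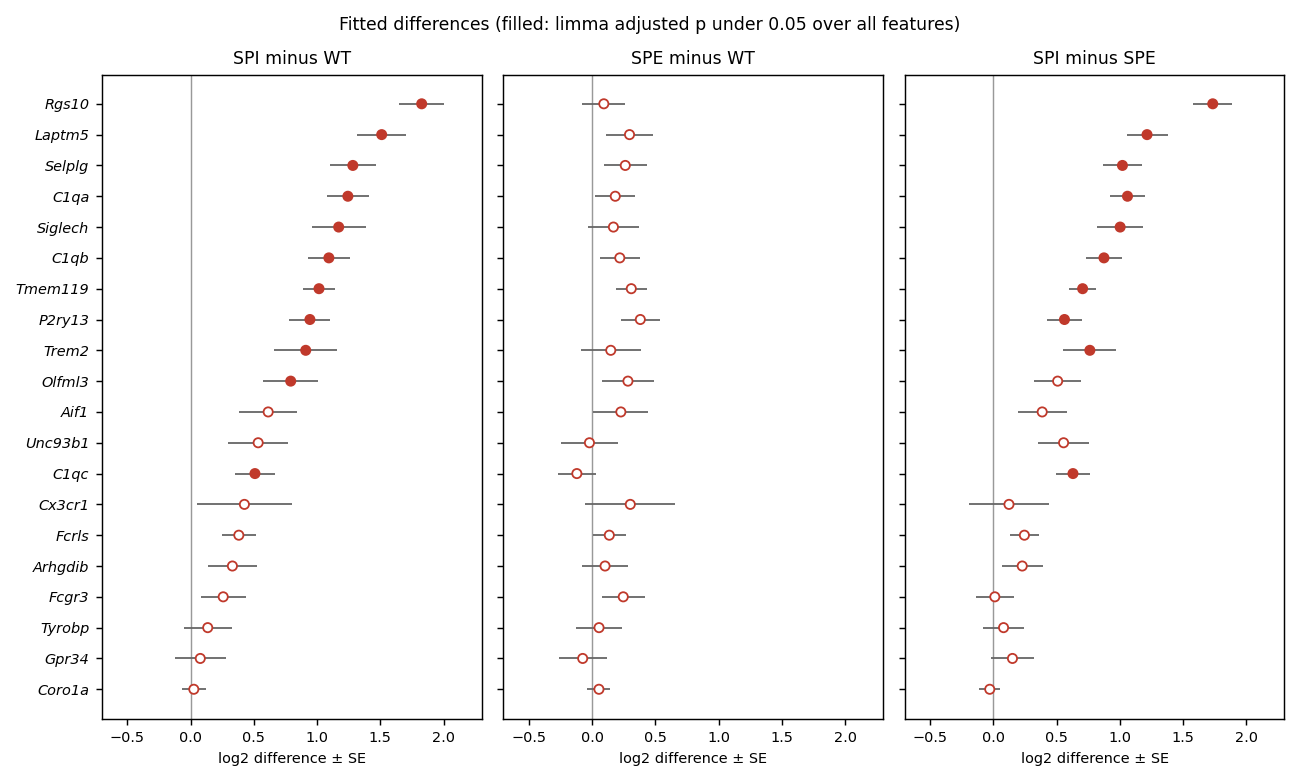
Fitted log2 difference with its standard error for each measured microglia gene, in SPI minus WT, SPE minus WT and SPI minus SPE, filled where the limma adjusted p was under 0.05. In SPI minus WT 11 genes are filled and in SPI minus SPE 10, all to the right of 0, and in SPE minus WT none is filled.

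Set against SPE, which came from the same 4 animals and from animal 165, microglia genes were again higher in SPI. Of the 20 genes 10 rose and 0 fell, where 10.8% of all features were called higher and 9.65% lower. These were the genes that rose over WT apart from Olfml3. Both comparisons use the same 4 SPI arrays, so they are not independent. The median difference was 0.56 (range -0.029 to 1.73), against -0.012 over all features. Of the 9 genes detected on every array 8 rose, where 13.9% of such features were called higher. Every SPI array lay above every SPE array for 8 of the 20 genes, against 6.22% of all features.

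Rgs10 was higher in SPI by 1.73 ± 0.15 (limma adjusted p = 4.45e-06), with differences within animals of 2.13, 2.07, 1.44 and 1.26 for animals 146, 147, 148 and 166. Laptm5 was higher by 1.21 ± 0.16 (limma adjusted p = 0.000132), with 1.54, 1.54, 1.07 and 0.57 in the same animals. C1qa was higher by 1.06 ± 0.14 (limma adjusted p = 0.000125), with 0.93, 1.63, 0.61 and 0.88. In each of these genes all 4 animals had the inner layer above the outer.

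Selplg differed by 1.02 ± 0.15 and Siglech by 1.00 ± 0.18 (limma adjusted p = 0.00036 and 0.00156). C1qb differed by 0.87 ± 0.14, Tmem119 by 0.70 ± 0.11 and C1qc by 0.63 ± 0.13 (limma adjusted p = 0.000702, 0.000426 and 0.00482). Trem2 differed by 0.76 ± 0.21 and P2ry13 by 0.56 ± 0.14 (limma adjusted p = 0.019 and 0.0105), and both lost the call without SPI 148, at 0.81 and 0.41. They also lost it with the mean signal as a covariate, at 0.16 and 0.52, and without the 3 dimmest arrays, at 0.49 and 0.43. C1qc lost its call against SPE without the 3 dimmest arrays as well, at 0.52 (limma adjusted p = 0.0859). Without SPI 147, the Trem2 difference was 0.48 and still called (limma adjusted p = 0.03). SPI was above SPE in all 4 animals for 10 of the 20 genes, as for 17.6% of all features. With 4 pairs an exact paired permutation test of 1 gene could not go below p = 0.125. In a fit of the 4 paired animals alone, with the animal as a fixed block, 5 of the 20 genes were called, and C1qc, P2ry13, Siglech, Tmem119 and Trem2 were not.

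Olfml3 and Unc93b1 were not called against SPE, at 0.51 ± 0.18 and 0.55 ± 0.20 (limma adjusted p = 0.0637 and 0.0636). Both were called when SPE 147 was left out, at 0.65 and 0.68 (limma adjusted p = 0.0126 and 0.022). Aif1 differed by 0.39 ± 0.19 and Cx3cr1 by 0.12 ± 0.32 (limma adjusted p = 0.168 and 0.813). The Cx3cr1 differences within animals 146, 147, 148 and 166 were 0.91, -1.39, 0.48 and 0.61, so animal 147 alone ran the other way.

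Between SPE and WT no microglia gene was called, and limma called 0 of the 9355 features (0%), with 358 at an unadjusted p under 0.05. The median over the 20 genes was 0.18 (range -0.12 to 0.38), against 0.036 over all features, and 17 of the 20 fitted differences were above 0. P2ry13 had the largest difference, 0.38 ± 0.15, while Tmem119 differed by 0.31 ± 0.12 and Laptm5 by 0.30 ± 0.18 (limma adjusted p = 0.904 each). C1qa differed by 0.18 ± 0.16 and C1qb by 0.22 ± 0.16. For 0 of the 20 genes did every SPE array lie above every WT array, against 0.855% of all features. A p that misses the threshold does not show that SPE and WT have the same level.

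SPI 147 moved the results of single genes in both directions. On that array 9 of the 20 genes were not detected (Cx3cr1, Gpr34, Fcrls, Tyrobp, Fcgr3, Unc93b1, Olfml3, Aif1 and Arhgdib), and 7 of these had their lowest SPI value there. In contrast, 5 genes had their highest SPI value there (C1qa, Trem2, Laptm5, Coro1a and Rgs10). The raw signals on SPI 147 were small: 154 for Laptm5, 136 for Rgs10, 91.0 for C1qa and 89.8 for Tmem119, where the median over all probes was 84.4.

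Without SPI 147, 15 of the 20 microglia genes rose in SPI over WT and 14 over SPE, while 14.1% and 13.2% of 9334 features were called higher. The genes gained over WT were Cx3cr1 (0.99 ± 0.15), Aif1 (0.93 ± 0.17), Unc93b1 (0.87 ± 0.15) and Fcgr3 (0.44 ± 0.14), with limma adjusted p = 0.000718, 0.00193, 0.0015 and 0.0337. Against SPE, Olfml3, Unc93b1, Aif1 and Cx3cr1 were gained, at 0.81, 0.89, 0.69 and 0.68. The 11 genes called over WT with all arrays were each called without SPI 147 as well. Among them Olfml3 stood at 1.11 ± 0.13, Trem2 at 0.63 ± 0.19, Laptm5 at 1.38 ± 0.20 and Rgs10 at 1.72 ± 0.19.

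**Figure D4:**
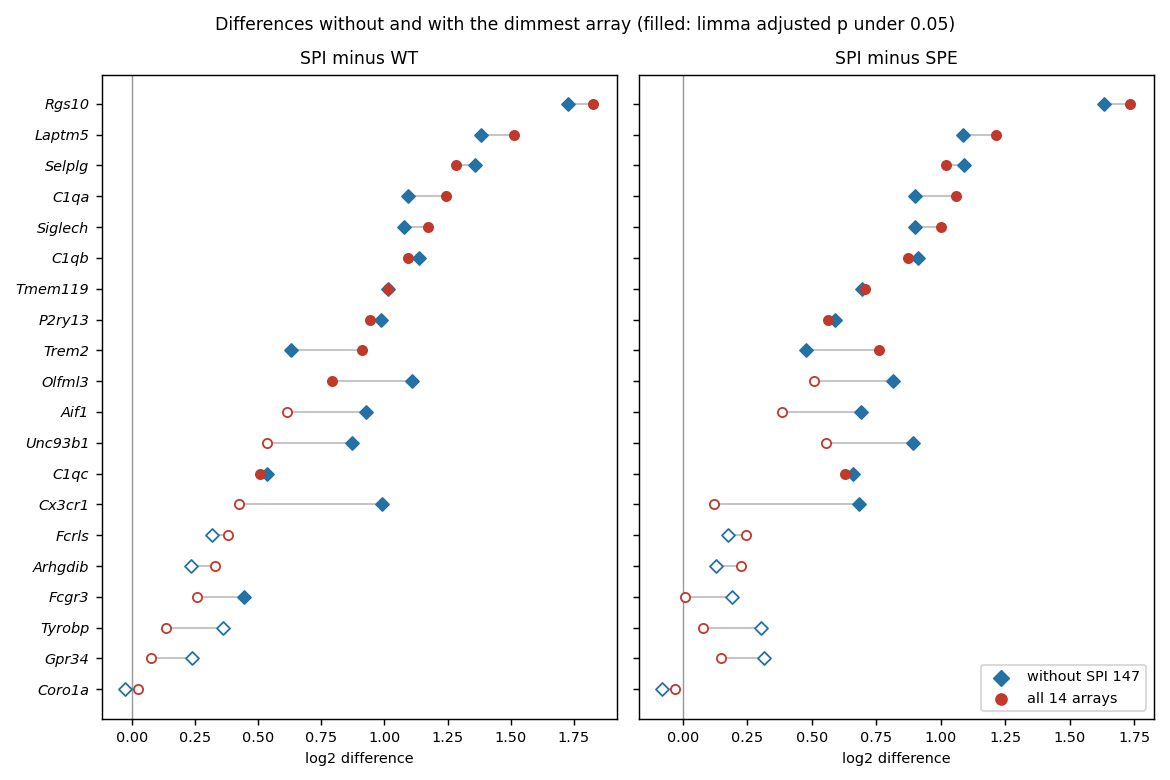
Log2 difference of each measured microglia gene without and with SPI 147, for SPI minus WT and SPI minus SPE, filled where the limma adjusted p was under 0.05. Without that array Cx3cr1 in SPI minus WT is 0.99 and called, against 0.43 with it, while Trem2 is 0.63 without it and 0.91 with it.

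Arrays also differed within groups. Over the 11 genes that rose over WT, SPI 166 was the lowest SPI array in 9. The highest was SPI 148 in 5 and SPI 147 in 4. In SPE, animal 148 was the highest in 7 of the 11 and animal 165 the lowest in 7. In WT, animal 199 was the highest in 6. SPE 148 and WT 199 had the lowest mean raw signal of their groups (279 and 371). SPI 147 and SPI 148 had the lowest of SPI (119 and 231). Differences between animals and between array brightness cannot be told apart here, and neither was tested. Of the 20 genes, the mean log2 level was 6.24 to 6.67 on the SPI arrays, 5.75 to 6.01 on the SPE arrays and 5.60 to 5.78 on the WT arrays, with no overlap of SPI and the other groups.

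Markers of other macrophages and blood cells were mostly below detection. Of 10 border macrophage markers 8 were detected on no array, among them the mannose receptor Mrc1, Cd163 and Lyve1, and 1 was measured. That gene, Dab2, a clathrin adaptor, was detected on 4 of the 14 arrays, the fewest the filter allows, with log2 levels of 4.88 to 5.31 in SPI, 4.49 to 5.03 in SPE and 4.49 to 4.82 in WT. Its call in SPI against WT (limma adjusted p = 0.0277) rests on these low signals. Of the 17 probed markers of other leukocytes 12 were detected on no array, among them the monocyte receptor Ccr2 and the granulocyte gene S100a8. Cd3e, the 1 measured, differed by 0.79 ± 0.29 (limma adjusted p = 0.0616). Of 7 red blood cell genes 3 were measured and 0 were called in SPI against WT, beside 13.6% of all features called higher and 10.9% lower. At those shares, 0 of 3 says little about these cells. The summed linear signal of the 3 genes was 1195 to 1691 in SPI, 690.5 to 1301 in SPE and 668 to 2350 in WT. Several microglia genes were below detection too, so an undetected marker does not show that its cells were absent.

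Genes of other glia moved with the microglia genes. The counts below stand beside 13.6% of all features called higher in SPI than in WT and 10.9% lower. In SPI against WT, 11 of 15 measured myelin and oligodendrocyte genes rose and 0 fell (median 1.08), led by Olig1 at 1.44 ± 0.16, Enpp6 at 1.58 ± 0.18 and Cnp at 1.34 ± 0.16 (limma adjusted p = 5.5e-05, 8.6e-05 and 0.00011). Their summed signal was 11813 to 21183 in SPI, 7165 to 7969 in SPE and 5840 to 8165 in WT. Of 13 astrocyte genes 7 rose and 0 fell (median 0.66), led by Cldn10, the glutamate transporter Slc1a3 and the gap junction gene Gja1, at 1.30 ± 0.11, 1.15 ± 0.12 and 1.54 ± 0.17. The astrocyte sum was 12399.9 to 17109 in SPI, 7939 to 8725 in SPE and 7212 to 8193 in WT. Not every gene ran upward: 13 of 15 myelin and 12 of 13 astrocyte differences were above 0. Of 6 oligodendrocyte precursor genes 2 rose, Pdgfra by 1.85 ± 0.16 and Gpr17 by 1.15 ± 0.31, and Bcan had 0.74 ± 0.36 without a call.

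Of 12 endothelial and mural genes 2 rose, Vtn by 0.94 ± 0.14 and Rgs5 by 1.23 ± 0.27, and Itm2a fell by 1.20 on the log2 scale (SE 0.20), shares near the 13.6% and 10.9% of all features. Of 15 pan-neuronal genes 2 rose, Map2 and Camk2a, and 6 fell (median -0.19), beside the same 13.6% and 10.9%. Among those that fell was Stmn2 at -0.41 ± 0.12. Of 7 CA3 pyramidal genes Bok rose and 2 fell, Cpne4 and Spock1, at -0.91 ± 0.21 and -1.13 ± 0.28. In both neuronal lists the share that rose was near the 13.6% of all features, so the rises say little about the lists. The pan-neuronal sum was 81347 to 89185 in SPI, 83745 to 93678 in SPE and 92194 to 95624 in WT. The part of these other cell types and of the dissection in the microglia differences was not tested.

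Genes tied to microglial states varied. Of 13 measured genes associated with microglia in disease, 9 had a difference above 0 in SPI against WT (median 0.44). Of the 13, 5 rose and 0 fell, beside 13.6% and 10.9% of all features. The rises were led by the receptor tyrosine kinase Axl at 1.34 ± 0.17, the tetraspanin Cd63 at 1.35 ± 0.19 and Gpnmb at 1.01 ± 0.26. The other rises, named after their values were seen, were Cd9 at 0.59 ± 0.20 and the cathepsin Ctsz at 0.86 ± 0.24. Against SPE, 7 of the 13 rose and 2 fell, beside 10.8% and 9.65% of all features. The 2 that fell, also named after their values were seen, were Lpl at -0.31 ± 0.09 and Ctsb at -0.36 ± 0.12. Astrocytes and other brain cells express several of these 13 genes as well. Their summed signal was 11244 to 12694 in SPI, 11875 to 12835 in SPE and 11138 to 13622 in WT, so the sums of the groups overlapped. Their mean log2 level was 7.89 to 8.10 in SPI, 7.47 to 7.59 in SPE and 7.49 to 7.67 in WT, with SPI above both other groups. Of 18 cytokine and acute activation genes 15 were detected on no array, and Il18, the 1 measured, differed by 0.15 ± 0.17. Of 10 cell cycle genes 3 were measured and 0 were called, at 0.15 to 0.21. Beside 13.6% and 10.9% of all features, 0 of 3 says little about the list.

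Of 10 measured microglia ligands and their partners, 2 rose and 2 fell in SPI against WT, beside 13.6% and 10.9% of all features, so these counts say little about the list. The receptors of the growth factor TGF-beta, on which microglia depend, rose: Tgfbr1 by 1.17 ± 0.17 and Tgfbr2 by 1.02 ± 0.24 (limma adjusted p = 0.000369 and 0.00856). Sirpa, an inhibitory receptor of microglia and neurons, differed by -1.10 ± 0.24 (limma adjusted p = 0.00493), and Il34, a neuronal ligand of Csf1r that was named after its values were seen, by -0.76 ± 0.23 (limma adjusted p = 0.0274). Between SPE and WT limma called 0 genes in each of these lists.

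**Figure D5:**
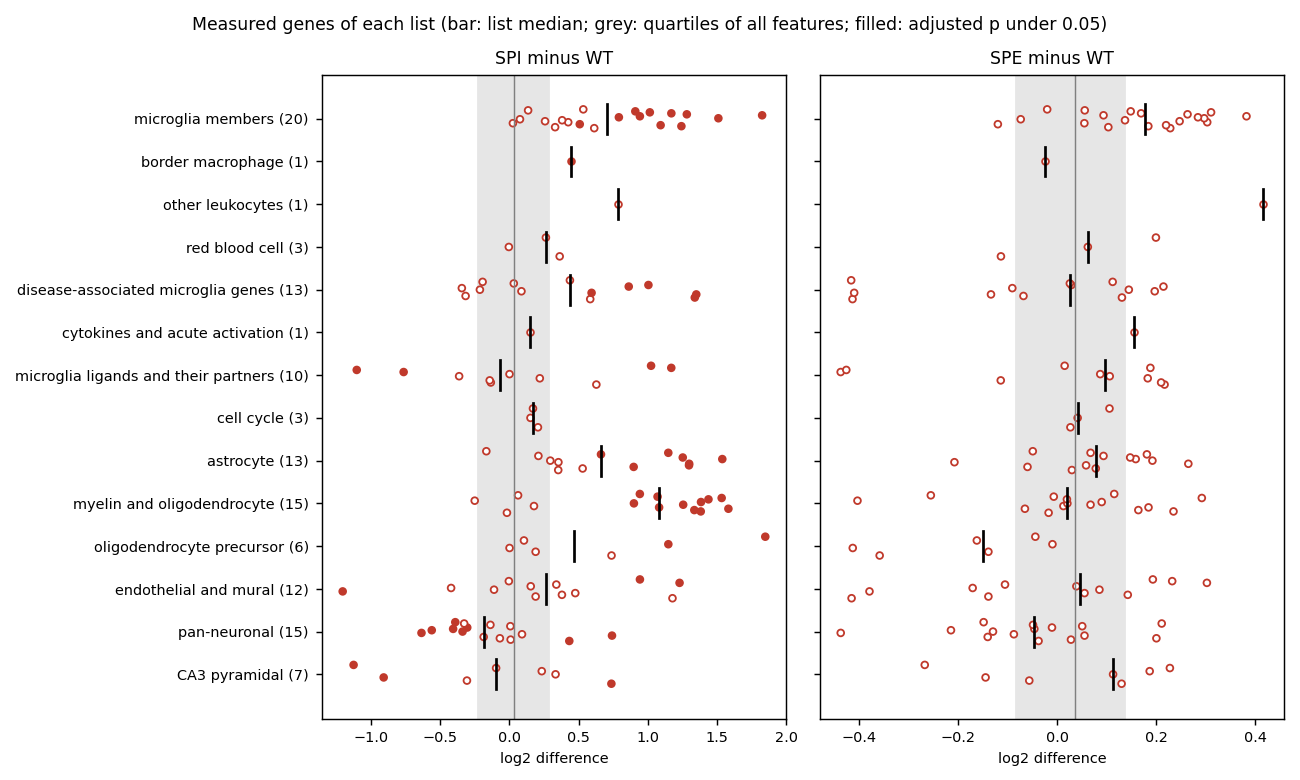
Log2 differences of the measured genes of each list, 1 point per gene, for SPI minus WT and SPE minus WT, with a bar at the list median, grey for the quartiles of all features and a horizontal scale of its own in each panel. In SPI minus WT the medians are 0.70 for the microglia genes, 1.08 for myelin, 0.66 for astrocytes and -0.19 for neurons, and no gene is filled in SPE minus WT.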

How the data were processed

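There was 1 array for each of the 14 samples. The authors deposited a table of raw bead signals, a linear intensity per probe and array, with a detection p-value per probe and array; per the submitters' processing notes BeadStudio was used, and no source used here gives its background handling. They also deposited a second, normalised intensity table, used here as an alternative.

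From the raw intensities, background was corrected with neqc of limma 3.58.1 in R 4.3.3 (a normexp model whose control mean and variance came from the detection p-values, with an offset of 16), and values were then quantile normalised and log2 transformed. Of 25697 probes, 12140 were kept for a detection p under 0.05 on 4 or more arrays. The brightest probe stood for each gene (23978 probes had 1 symbol, 1719 none; 23962 matched RefSeq, GRCm38.p6), leaving 9355 features.

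A single limma fit over the 14 arrays had the 3 groups as terms and the animal as a random block (correlation 0.319). Fitted differences under this block can depart slightly from differences of group means. Animals with both layers were paired by the number in the sample title. The correlation between the deviations of the layers of 1 animal was 0.262 in animal 146, 0.131 in 147, 0.626 in 148 and 0.266 in 166. Tests were two-sided, with Benjamini-Hochberg adjustment over all features and calls at an adjusted p under 0.05. The fit was tested on simulated data. Titles were used for the layers, since the bracketed layer code of the outer samples in the brain region field is that of the inner layer. No sample column was left out.

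The named genes were all 37 microglia genes, up to 3 measured genes of each other list with the smallest p in SPI against WT, and members whose probes differ in sign. The members and lists were chosen with earlier results of these data known. Alternatives covered background correction, scaling, the deposited normalised values, the detection filter, the probe rule, the animal block, array quality and leaving out arrays.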

Additional observations from a re-analysis of the deposited data

Results flagged for a closer look

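In 4 of 60 gene and group combinations, 1 array stood apart from the rest of its group (the gap to its nearest neighbour, over the range of the group, above the 95% critical value of Dixon's test); chance flags about 1 in 20. Coro1a measured 11.59 on SPI 147, with 11.45 on the nearest SPI array. Siglech measured 5.21 on SPE 148, with 4.75 on the nearest SPE array. Tmem119 measured 5.42 on WT 144, with 5.25 next. Laptm5 measured 7.04 on WT 206, below the next WT value of 7.64.

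Among microglia genes that did not pass the detection filter, a pair had a signal above all WT arrays on an array where they were detected. Ctss measured 5.94 on SPI 147, the dimmest array, against at most 4.67 in WT, and its raw signal there was 88.0. Ctss was also detected and above every WT array on SPI 148 (5.15) and on the outer-layer array SPE 165 (4.73). Ly86 measured 5.80 on SPI 148 and 5.15 on SPI 146, against at most 4.64 in WT. Neither gene was tested.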

How the results depend on the processing

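The count of 11 microglia genes higher in SPI than in WT stayed within 1.5 times under every alternative except both median scalings, and 0 genes were called between SPE and WT under every alternative. With median scaling over the probes past the filter (all-feature median 0.18), 19 genes were called in SPI against WT and 18 in SPI against SPE (3201 and 2133 features called in either direction, against 2289 and 1917 with quantile normalisation), with medians of 1.23, 0.31 (SPE against WT) and 0.87, and Coro1a was -0.0573 in SPI against WT. Median scaling over all probes was added after seeing the data; in SPI against WT and SPI against SPE it moved the all-feature medians to -0.85 and -0.73 and left 1 and 0 microglia genes called higher and 1 (Coro1a) and 0 called lower (4014 and 0 features called in either direction), with medians of 0.19 and 0.0719. It reversed C1qc (-0.33), Cx3cr1 (-0.11), Fcgr3 (-0.21) and Coro1a (-1.09) against WT, and C1qc (-0.0515), P2ry13 (-0.0062) and Cx3cr1 (-0.21) against SPE. Without background correction the medians of SPI against WT and SPE were 0.27 and 0.21, and on the deposited normalised values they were also 0.27 and 0.21. A detection p under 0.01 left 14 genes with a median of 0.92 against WT, and leaving out animal 147 gave 0.95.

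Leaving out 1 array at a time gave 9 to 15 calls and medians of 0.64 to 0.96 for SPI against WT, 8 to 14 calls and 0.52 to 0.70 for SPI against SPE, and medians of 0.14 to 0.22 for SPE against WT. The highest counts were those without SPI 147; the lowest were those without SPI 146 (against WT) and SPI 148 (against SPE). Gpr34 against WT ran between -0.0775 without SPI 146 and 0.24 without SPI 147, and was -0.0432 without SPI 148. Cx3cr1 against SPE ran between -0.15 without SPI 146 and 0.68 without SPI 147, and was -0.0034 and -0.0747 without SPI 166 and SPI 148. Coro1a against WT ran between -0.0247 without SPI 147 and 0.0675 without WT 199, and was -0.0124 without WT 142, -0.42 with the mean of its probes, -0.10 with the mean signal as a covariate, -0.0166 without the 3 dimmest arrays and -0.0143 without animal 147. With no replicate block the calls numbered 11, 0 and 10, as with it, while the paired animals alone with a fixed replicate block gave 5 genes in SPI against SPE, where 356 features were called in all. Siglech against WT lost its call with the mean signal as a covariate (0.83, limma adjusted p = 0.0741). The causes of these shifts were not tested. Signals close to background limit the 11 measured genes that were not detected on every array. They also limit some genes detected on every array. C1qa had a raw signal of 119 on WT 206, where the median over all probes was 114. P2ry13 had 88.1 on SPI 147, where that median was 84.4.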
